A study of Salmo salar with 96 samples.

Results

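The comparison described here set fry fed a low-fat diet against fry fed a normal diet, and it took in 8 of the 96 samples of an Atlantic salmon (*Salmo salar*) expression panel, chosen by the sample type, the age and the diet given for each sample. The samples were 2 low-fat diet and 2 normal diet whole fry of 1320 °d (degree days, the age in days multiplied by the water temperature), and caudal vein blood from 2 low-fat diet and 2 normal diet fry of 2212 °d. All 8 came from Neva strain fish raised at the Lammi Biological Station, and 2 normal diet whole fry of 1119 °d were left out because no low-fat fry of that age were measured. Transcripts of 220 genes were counted with NanoString nCounter, in which a bar-coded probe pair binds each transcript and the bar codes are counted directly without amplification. The fish are named below by diet and by their number in the sample descriptions, so that numbers 3 and 4 were low-fat and 1 and 2 normal diet fish in both sample types. What the low-fat feed contained, for how long it was given, how the fish were kept in tanks and their sex are not given in the sources used here, so that diet cannot be told apart from tank, and the spread between fish is that of 2 fish per group.

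Fat stores are part of what a young salmon draws on when it grows, smoltifies and matures, and the panel carries several gene groups that act on them. Leptin, acting through its receptor, reports energy stores to the brain in mammals, and growth hormone, released by the pituitary, drives growth and the release of stored fat through its receptor. The CCAAT/enhancer-binding proteins (*cebp*), the peroxisome proliferator-activated receptors (*ppar*) and the Krüppel-like factor *klf15* are transcription factors of fat cell formation and of fatty acid use, and apolipoprotein C1 (*apoc1*) travels on lipoprotein particles made mainly by the liver. Salmon carry extra copies of many genes from a whole genome duplication of their ancestors, marked here by a final letter; a probe specific to a single copy could not be designed for every gene, so a signal given to one copy may include a near-identical one.

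Counts were scaled with 6 reference genes, and all values below are such normalized counts, with 20 as the study's threshold for detection. Total raw counts over the panel were 201761 to 212633 in whole fry and 47598 to 80281 in blood, and scaling factors were 0.917 to 1.294 in whole fry and 1.01 to 1.809 in blood. The negative control probes averaged 9.72 to 16.28 after scaling, so values near or below 20 lie close to background. The highest negative probe of a sample had 16 to 43 raw counts before scaling, so some values above 20 also lie within the range of these probes. Total counts, scaling factors, both kinds of control probes and the number of genes at 20 or more had log2 differences, low-fat minus normal averaged over the sample types, of -0.09 to 0.18. An exact two-sided permutation test gave them p of 0.39 to 1.0, but its 36 arrangements allow no p under 0.056, so it could not have called a difference. An average over the sample types can cancel opposite differences. Total counts were 207084 and 201761 in low-fat whole fry, against 212633 and 210476 in normal diet whole fry. In blood they had the opposite order, 55677 and 80281 on the low-fat diet against 47598 and 52536. Scaling factors were 1.294 and 1.073 in low-fat whole fry, against 1.014 and 0.917. In blood they overlapped, at 1.774 and 1.01 on the low-fat diet against 1.497 and 1.809. The 4 whole fry were run on 1 cartridge in lanes 1 to 4 and the 4 blood samples on another in lanes 9 to 12. The cartridge therefore cannot be told apart from the sample type, and the lane order cannot be told apart from the diet within a cartridge.

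The fish within a diet differed from each other about as much as fish of different diets. Over the 164 genes that averaged 20 or more in whole fry, the root mean square log2 difference between 2 fish was 0.54 to 0.74 in the 4 pairs of different diets and 0.56 and 0.59 in the 2 pairs of the same diet. Over 94 such genes in blood it was 0.73 to 1.17 in the 4 pairs of different diets and 0.81 and 1.1 in the 2 pairs of the same diet. No pair agreed to within counting noise, so all 8 were kept as separate samples.

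**Figure D1:**
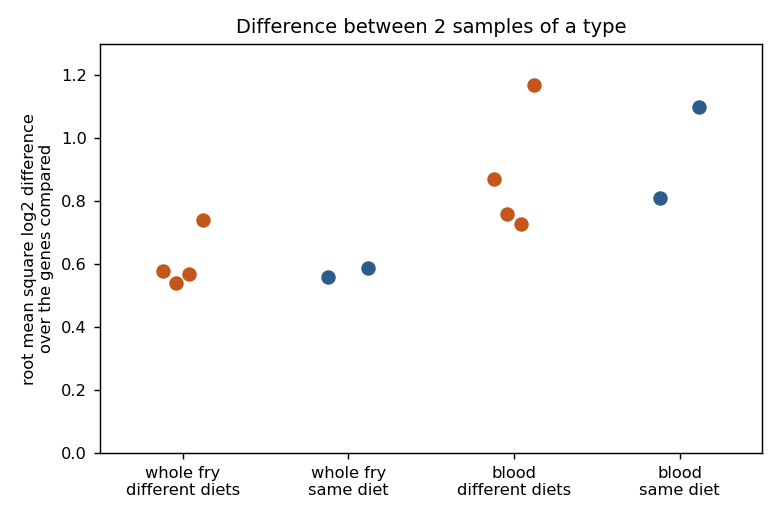
Root mean square log2 difference in normalized counts between 2 samples of a type (y axis), for each of the 4 pairs of different diets and the 2 pairs of the same diet, for 164 genes in whole fry and 94 genes in blood. The points of pairs with different diets (orange) and with the same diet (blue) cover overlapping ranges in both sample types.

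The question the design poses is whether the low-fat diet changed the level of any panel gene, and no gene passed in the main fits of all 8 samples. Of the 220 genes, 177 averaged at least 20 in one or more of the 4 diet and sample type groups and entered the quasi-likelihood test of edgeR. With both sample types together and the type as a block, 0 of 177 genes (0%) had an adjusted p under 0.05, and the lowest was 0.94. In a joint fit of the 4 group means, 0 of 177 (0%) passed for whole fry, with a lowest adjusted p of 0.75. For blood 0 of 177 (0%) passed, with a lowest of 0.55. In the test of whether the diet difference itself differed between blood and whole fry, 0 of 177 (0%) passed, with a lowest of 0.31. In an edgeR fit of the whole fry without the blood samples, *egr1b* and *ghb* passed, at adjusted p of 0.0031 and 0.038. That fit estimates the spread from 2 fish per diet alone, whereas the joint fit draws on all 8 samples. At an unadjusted p under 0.05 there were 8 genes (4.52%) for both types, 10 (5.65%) for whole fry, 8 (4.52%) for blood and 11 (6.21%) for the difference. DESeq2 called 0 genes for both types and 0 for whole fry, and 1 gene, *gapdh*, for blood and for the difference. The median log2 fold change, low-fat over normal, was -0.07 over both types, -0.07 in whole fry and -0.02 in blood.

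A gene that missed the threshold is not thereby shown to be the same under both diets, and the intervals say how large a difference the fish could have hidden. With both types together, the 95% interval of the log2 fold change lay inside -1 and 1, that is within 2-fold in either direction, for 104 of 177 genes. It did so for 55 genes in whole fry and for 26 in blood, and it reached past 2-fold in both directions for 5 genes with both types, 16 in whole fry and 46 in blood. The interval with both types bounds an effect common to them, so opposite effects can cancel in it. For *akap11b* it was -0.84 to 0.85, but 0.05 to 1.82 in whole fry and -1.79 to -0.03 in blood. Of the 177 genes, 172 averaged 20 or more in a whole fry group and 100 in a blood group. All blood counts over the 177 genes therefore include genes near background in blood. The median standard error was 0.32 with both types, 0.4 in whole fry and 0.53 in blood, on the log2 scale. Values after ± below are standard errors of the log2 fold change, low-fat over normal. Within a type they compare 2 fish per diet, with a spread estimated from all 8 samples, and over both types 4 per diet. Where diets are said not to overlap, both low-fat values lay above or below both normal diet values. With 2 fish per diet this is common without any diet difference. It held for 36.7% of the 177 genes in whole fry and for 30.5% in blood.

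In the leptin and growth hormone axis 6 of 10 panel members were tested, and their log2 fold changes over both types were spread over -1.57 to 0.88, with 4 above 0 and 2 below. The growth hormone genes had the lowest values of the axis. *Ghb* had 27.2 and 7.51 counts in low-fat whole fry, against 41.6 and 135 in normal diet whole fry, a log2 fold change of -2.38 ± 0.66 (95% interval -3.86 to -0.90, adjusted p 0.75, edgeR). *Gha* had 28.5 and 10.7 in low-fat whole fry, against 19.3 and 112 in normal diet whole fry, a log2 fold change of -1.77 ± 0.77. Without normal diet fry 2 the log2 fold change was -1.29 for *ghb* and 0.0 for *gha*, and without low-fat fry 3 it was -3.53 for *ghb* and -2.6 for *gha*. For *ghb* the diets did not overlap, for *gha* they did, and in both genes normal diet fry 2 was the highest and low-fat fry 4 was below 20. Both genes entered the test through normal diet whole fry alone, with means of 88.2 for *ghb* and 65.58 for *gha*. The filter can therefore favour a difference in them. In parr raised in the hatchery both genes had their highest mean in the brain, 266.5 ± 359.8 for *ghb* and 141.4 ± 163.1 for *gha* (SD, n = 4), a spread as wide as the mean. In a fit of the whole fry without the blood samples *ghb* had an adjusted p of 0.038. The levels in fry blood, 10.7 and 10.1 on the low-fat diet and 8.98 and 12.7 on the normal diet for *ghb*, were all under 20.

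The growth hormone receptor *ghr1* had 491 and 1289.6 counts in low-fat whole fry, against 258 and 431 in normal diet whole fry, a log2 fold change of 1.37 ± 0.54, with an interval of 0.16 to 2.58 and an adjusted p of 0.75. Both low-fat fry were above both normal diet fry, and without low-fat fry 4, the higher of them, the log2 fold change was 0.51. *Ghr1* was below 20 in all blood samples. In hatchery parr its highest means were 2217.8 ± 1022.3 in adipose tissue (SD, n = 4) and 1120 ± 74.5 in muscle (SD, n = 2).

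Of the leptin receptor genes, *lepra* had 66 and 37.5 counts in low-fat whole fry, against 26.4 and 34.9 in normal diet whole fry, and 14.2 and 11.1 in low-fat blood, against 10.5 and 5.43 in normal diet blood. The diets did not overlap in either sample type, although every blood value was under 20, and the log2 fold change over both types was 0.70 ± 0.34 (interval -0.04 to 1.44, adjusted p 0.98). *Leprb* overlapped between the diets in both types, at 53.1 and 34.3 in low-fat and 28.4 and 41.3 in normal diet whole fry. The leptin gene *lepb1* lay near background, with 29.8 and 11.8 in low-fat and 13.2 and 11.9 in normal diet whole fry, and only low-fat fry 3 exceeded 20. Ghrelin, the hunger hormone of the stomach, and the 3 copies of its receptor did not average 20 in any group and were not tested.

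Of 18 adipogenic transcription factors 15 were tested, and 0 passed in any comparison. Their median log2 fold change over both types was 0.04, beside -0.07 over all 177 genes, with 8 above 0 and 7 below, and for 9 of the 15 the interval lay within 2-fold. The diets did not overlap in 6 of the 15 in whole fry, 40% beside 36.7% of all 177 genes, and in 4 in blood, 26.7% beside 30.5%. *Pparaa* and *pparab*, the regulators of fatty acid oxidation in mammals, were among the most narrowly bounded, at -0.02 ± 0.25 (interval -0.57 to 0.53) and -0.07 ± 0.25 (interval -0.62 to 0.48) over both types. All blood values of *pparaa* and *pparab* were under 20, so these intervals rest partly on counts near background. The log2 fold change of *pparaa* was 0.16 in whole fry and -0.59 in blood. In blood it had 7.1 and 7.07 counts on the low-fat diet, below 8.98 and 12.7 on the normal diet. In whole fry *pparaa* had 226 and 229 counts on the low-fat diet, against 191 and 216 on the normal diet, with both low-fat fry above both normal diet fry. *Pparb1a* was as close, at 116 and 142 in low-fat and 94.3 and 151 in normal diet whole fry and at 238 and 268 in low-fat and 242 and 262 in normal diet blood.

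The factors of fat cell formation gave wider intervals. *Pparga*, a copy of the main regulator of fat cell differentiation, had 75.1 and 54.7 counts in low-fat whole fry, against 36.5 and 58.7 in normal diet whole fry, with normal diet fry 2 inside the low-fat range, and its log2 fold change over both types was 0.60 ± 0.35 (interval -0.17 to 1.37). *Pparb2b* and *ppargc* were at 0.23 ± 0.28 and 0.14 ± 0.43. *Klf15b* had 77.7 and 78.3 in low-fat whole fry, against 33.5 and 54.1 in normal diet whole fry, without overlap (0.83 ± 0.48, interval -0.25 to 1.90). *Klf15d*, with 245 and 264 in low-fat and 178 and 220.1 in normal diet whole fry, did not overlap either, at 0.35 ± 0.35. *Klf15a* and *klf15c* overlapped in whole fry, and their values over both types were -0.38 ± 0.39 and 0.25 ± 0.40. All blood values of *pparga*, *ppargc* and *klf15c* were under 20, so their values over both types rest partly on counts near background.

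The *cebpa*, *cebpd* and *cebpb* genes were among the better expressed members. *Cebpaa* had 558 and 402 counts in low-fat whole fry, against 444 and 485 in normal diet whole fry, and *cebpab* 494 and 429 against 540.5 and 583. Over both types they were at -0.02 ± 0.26 and -0.27 ± 0.23. *Cebpda* and *cebpdb* were at -0.06 ± 0.25 and -0.12 ± 0.26, with intervals of -0.61 to 0.48 and -0.71 to 0.46. *Cebpba* took opposite positions in the sample types. It had 387 and 269 counts in low-fat whole fry, against 544 and 508 in normal diet whole fry, and 834 and 326 in low-fat blood, against 314 and 224 in normal diet blood, with no overlap in either. Its log2 fold change was -0.68 ± 0.43 in whole fry and 1.10 ± 0.43 in blood, with adjusted p of 0.86 in whole fry and 0.81 in blood, and the difference of the effects, blood minus whole fry, was 1.78 ± 0.61 (interval 0.43 to 3.14, adjusted p 0.69). Without low-fat blood 3 the log2 fold change in blood was 0.27 and the difference of the effects 0.96.

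Both panel genes of lipid handling, *apoc1a* and *apoc1b*, varied more within a diet than between the diets. *Apoc1b* had 15275 and 3246 counts in low-fat whole fry, against 4150.3 and 22224 in normal diet whole fry, so that low-fat fry 3 and normal diet fry 2 were high and the other two low. *Apoc1a* had 2258 and 1121 in low-fat and 943 and 2576 in normal diet whole fry, with the same fish high. The log2 fold changes in whole fry were -0.06 ± 0.55 for *apoc1a* and -0.51 ± 0.84 for *apoc1b*, and the interval of *apoc1b*, -2.39 to 1.37, reached past 2-fold in both directions. The same 2 fry were also the higher ones in *spp2*, secreted phosphoprotein 2, with 1672 and 569 in low-fat and 509 and 2055 in normal diet whole fry, and in *mst1b*, with 97.1 and 47.2 in low-fat and 36.5 and 225 in normal diet whole fry. In hatchery parr *apoc1b* was highest in the liver, at 387096 ± 29431 (SD, n = 4). In a homogenate of a whole fish, a smaller share of cells of a type and less RNA per cell cannot be told apart, and this holds for each whole fry value given here.

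**Figure D2:**
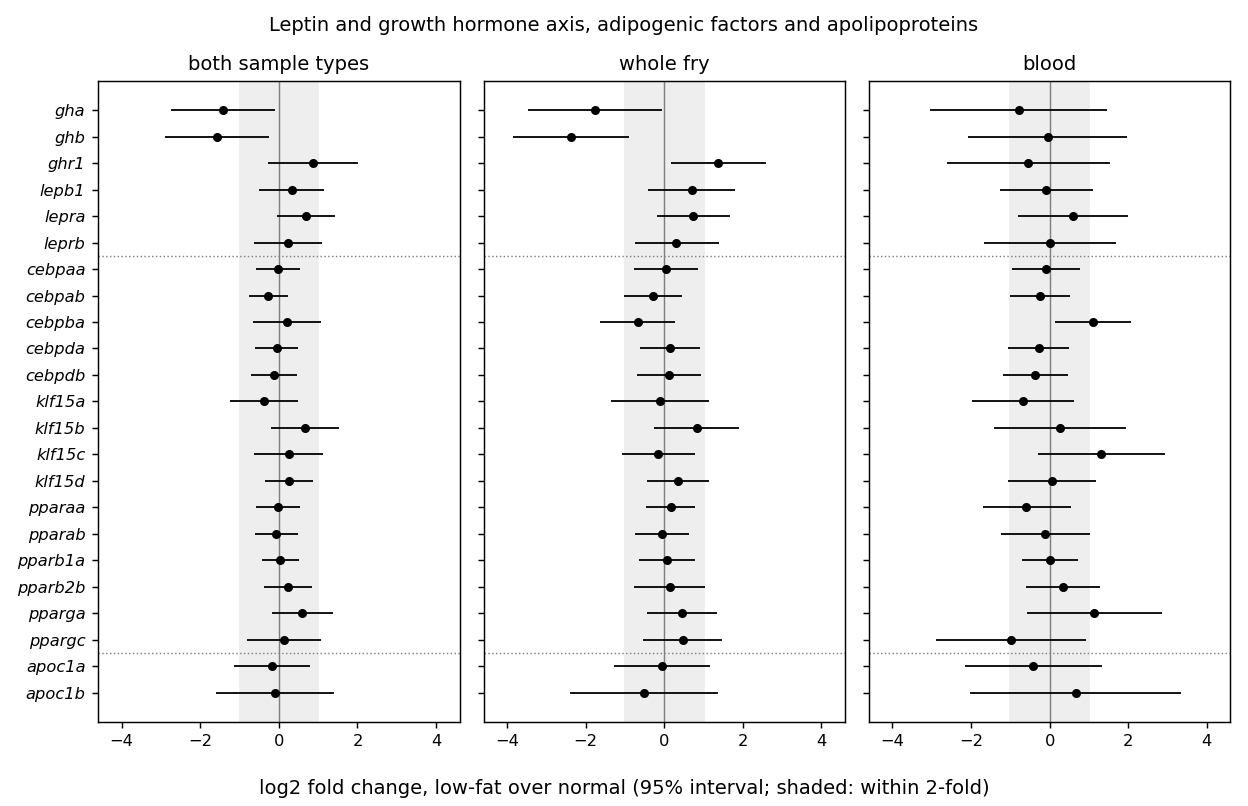
Log2 fold change, low-fat over normal (x axis), with its 95% interval for each tested gene of the leptin and growth hormone axis (top), the adipogenic transcription factors (middle) and apolipoprotein C1 (bottom), over both sample types, in whole fry and in blood. The grey band marks a change within 2-fold, and 0 of these genes passed the adjusted threshold.

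Of the 10 genes with the lowest p in whole fry, 9 are described, *ghb*, *egr1b*, *six3a*, *rpabc2a*, *ghr1*, *gapdh*, *akap11b*, *myf5b* and *gha*, and each is given by its values because none passed the adjusted threshold. *Egr1b*, an immediate early transcription factor that cells induce within minutes of stimulation, had 155 and 166 counts in low-fat whole fry, against 434 and 371 in normal diet whole fry. The 2 fish of each diet lay close together and the diets were far apart, with a log2 fold change of -1.32 ± 0.42 (interval -2.27 to -0.37, adjusted p 0.75). In a fit of the whole fry without the blood samples its adjusted p was 0.0031, and without normal diet blood 1 or normal diet blood 2 in the joint fit it was 0.049 and 0.05. Over both sample types it was 0.94, and 0.023 without normal diet blood 1. Another copy, *egr1a*, had 371 and 296 in low-fat and 533 and 515 in normal diet whole fry, also without overlap (-0.65 ± 0.36), whereas *egr1d* had 32.4 and 30 in low-fat and 31.4 and 24.8 in normal diet whole fry, with overlap (0.15 ± 0.37). In the wider list of early response and stress genes 4 of 7 tested were lower in low-fat whole fry without overlap and 0 higher, beside 23.7% lower and 13% higher over all 177 genes. The 4 include *egr1b* and *egr1a*, so this count is not separate from their values. The list's median was -0.25 in whole fry, beside -0.07 over all genes. In blood *egr1b* had 26.6 and 33.3 on the low-fat diet, against 18 and 63.3 on the normal diet, with the low-fat values between the normal diet ones.

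Of these 9 genes, *gapdh* and *myf5b* had their highest mean among hatchery parr tissues in muscle, and both stood higher in low-fat whole fry. The muscle means in parr were 698908 ± 183414 for *gapdh* and 166.1 ± 10.4 for *myf5b* (SD, n = 2). *Gapdh*, a glycolytic enzyme and a housekeeping candidate of the panel, had 44189 and 65967 counts in low-fat whole fry, against 20011 and 16105 in normal diet whole fry, a log2 fold change of 1.61 ± 0.64, with an interval of 0.18 to 3.03 and an adjusted p of 0.75. *Myf5b*, a factor that sets the muscle precursor fate, had 179 and 192 in low-fat and 129 and 95.4 in normal diet whole fry, a log2 fold change of 0.73 ± 0.31, with an interval of 0.04 to 1.42. In each of these genes, both low-fat fry exceeded both normal diet fry. The other marker of muscle precursors, *myf5a*, was at 148 and 154 in low-fat and 143 and 97.2 in normal diet whole fry, with no overlap but a gap of a few counts. Summed over both *myf5* copies the level was 326.2 and 346.5 in low-fat whole fry, against 271.8 and 192.6 in normal diet whole fry, and the part of muscle content in these values was not tested.

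Of the 11 tested markers of eye and brain, 8 had a log2 fold change below 0 in whole fry and 3 above 0, none past the adjusted threshold. *Six3a*, a transcription factor of the forebrain and eye, had 55.6 and 47.2 counts in low-fat whole fry, against 82.1 and 137 in normal diet whole fry, a log2 fold change of -1.09 ± 0.38, with an interval of -1.95 to -0.24 and an adjusted p of 0.75, and of -0.68 without normal diet fry 2. The neuronal reticulon *rtn1* had 1681 and 1199 in low-fat and 1937 and 2149.9 in normal diet whole fry, a log2 fold change of -0.50 ± 0.31, and *otx2b*, a head and eye patterning factor, had 33.6 and 29 in low-fat and 47.7 and 56.9 in normal diet whole fry, a log2 fold change of -0.74 ± 0.34. Of these 11 markers, 4 were lower in low-fat whole fry without overlap and 0 were higher, beside 23.7% lower and 13% higher over all 177 genes. In either direction the share without overlap was 36.4%, beside 36.7% of all genes. The log2 fold changes of the 11 ran from -1.13 to 0.52, with a median of -0.38 beside -0.07 over all genes. The summed level of the 13 markers on the panel was 2066 and 1547 in low-fat whole fry, against 2338 and 2740 in normal diet whole fry. Whether the share of head tissue moved with the diet was not tested. The list of sine oculis, *otx* and corepressor genes shares 9 members with these markers. Of its other 10 genes, all tested, 6 were lower in low-fat whole fry without overlap and 1 was higher, beside the same 23.7% and 13% over all genes, with the 3 corepressors *aesa*, *aesb* and *aesc* among the lower ones.

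*Rpabc2a*, a subunit shared by the RNA polymerases, had 236 and 196 counts in low-fat whole fry, against 385 and 359.6 in normal diet whole fry, a log2 fold change of -0.79 ± 0.29, with an interval of -1.44 to -0.13 and an adjusted p of 0.75. Its copy *rpabc2b* had 47.9 and 52.6 in low-fat and 98.4 and 67.9 in normal diet whole fry, a log2 fold change of -0.72 ± 0.37, so both copies were lower on the low-fat diet without overlap. Both overlapped in blood, where *rpabc2a* was at 465 and 472 on the low-fat and 338 and 496 on the normal diet. Over all 177 genes the diets did not overlap in 65 or 36.7% in whole fry, 23 with low-fat higher (13%) and 42 with low-fat lower (23.7%).

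**Figure D3:**
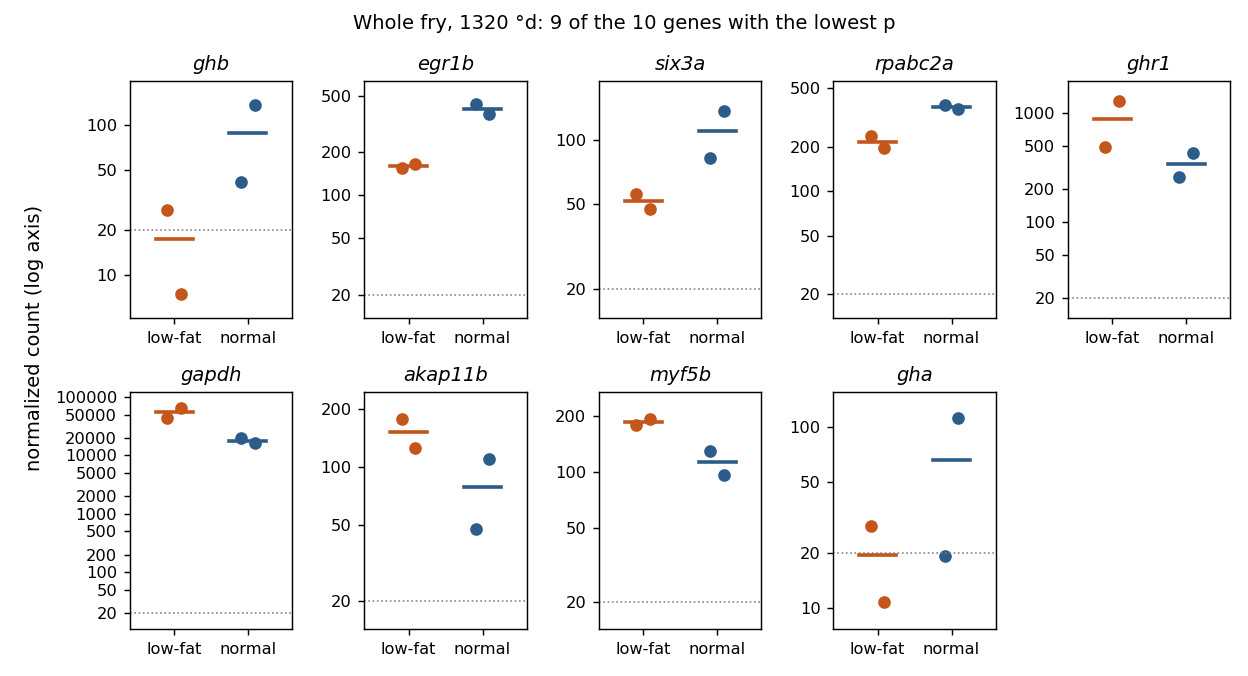
Normalized counts (y axes, log scale) of 9 of the 10 genes with the lowest p in whole fry of 1320 °d, each point 1 fish and each bar the mean of 2, low-fat in orange and normal in blue, with the detection threshold of 20 dotted where it falls on the axis. The diets are apart in every panel except *gha*, where 1 normal diet fry lies between the low-fat fry.

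In blood the 10 genes with the lowest p were *gapdh*, *mmp13c*, *edar*, *tead3a*, *mmp13a*, *cebpba*, *akap11b*, *greb1la*, *chmp2b* and *otx2c*, again none past the adjusted threshold. *Gapdh* had 147 and 106 counts in low-fat blood, against 304 and 1038 in normal diet blood, the opposite order to whole fry, with a log2 fold change of -2.41 ± 0.65 (interval -3.86 to -0.95, adjusted p 0.55). The diets did not overlap, and normal diet blood 2 was more than 3 times the other normal diet sample. DESeq2 gave *gapdh* an adjusted p of 0.017, and edgeR without normal diet blood 1 gave 0.036 at a log2 fold change of -3.04. Without normal diet blood 2 the log2 fold change was -1.27, with no call.

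Normal diet blood 2 also stood apart in markers of connective tissue. The collagen gene *col1a1a* had 280.4 and 75.7 counts in low-fat blood, against 95.8 and 841 in normal diet blood, and *col1a2* had 644 and 113 in low-fat and 127 and 1552 in normal diet blood. Summed over the 11 markers of connective tissue on the panel, the level was 1272 and 395.8 in low-fat blood, against 423.5 and 3069 in normal diet blood, where whole fry held 64490 to 106566. Within this list 9 of 11 markers had a log2 fold change below 0 in blood, with a median of -0.72, beside -0.02 over all genes, and 0 of 11 separated the diets, beside 30.5% of all genes. *Tead3a*, a DNA-binding partner in the Hippo pathway of growth control, followed the same sample. It had 26.6 and 7.07 counts in low-fat blood, against 26.9 and 101 in normal diet blood (-2.02 ± 0.70, interval -3.60 to -0.45, adjusted p 0.6), and the first low-fat and the first normal diet value differed by less than 1 count. The log2 fold change of *tead3a* was -0.83 without normal diet blood 2 and -3.13 without low-fat blood 3. *Chmp2b*, a membrane-sorting protein of the endosome, had 31.9 and 20.2 in low-fat and 25.4 and 85 in normal diet blood, with normal diet blood 2 the highest and the other normal diet sample between the low-fat ones, and without normal diet blood 2 its log2 fold change was -0.01. Without normal diet blood 1, which leaves normal diet blood 2 alone in its group, 4 genes passed in blood, *chmp2b*, *sox9d*, *tead3a* and *gapdh*. The part of other tissue in the sample was not tested.

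The collagenase genes *mmp13*, whose products break down fibrillar collagen and are made by white blood cells and bone cells, stood higher in low-fat blood. *Mmp13a* had 5467 and 1137 counts in low-fat blood, against 1048 and 774 in normal diet blood (1.86 ± 0.63, interval 0.45 to 3.26, adjusted p 0.6). Low-fat blood 3 carried nearly all of the gap, and the second low-fat sample was within 100 counts of the nearer normal diet sample. *Mmp13c* had 10.7 and 73.7 in low-fat blood, against 4.49 and 7.23 in normal diet blood (2.93 ± 1.00, interval 0.70 to 5.16, adjusted p 0.55), and here low-fat blood 4 was high and the other 3 samples were under 20. Different low-fat fish therefore led the 2 genes. Without low-fat blood 3 *mmp13c* had a log2 fold change of 3.64 and an adjusted p of 0.034, and without low-fat blood 4 a log2 fold change of 0.87 and no call. Without low-fat blood 3 *mmp13a* was at 0.32. In whole fry *mmp13c* was at 53.1 and 41.8 on the low-fat diet, against 19.3 and 35.8 on the normal diet, also without overlap, and *mmp13a* at 1180.4 and 1057 against 562 and 1134, with overlap. Over both types the 2 genes were at 1.53 ± 0.58 and 1.13 ± 0.48, with adjusted p of 0.94 and 0.98.

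The other blood genes of low p were mostly near background. *Edar*, a receptor of skin appendage formation, had 17.7 and 9.09 counts in low-fat blood, against 2.99 and 1.81 in normal diet blood, all under 20. *Otx2c* had 19.5 and 4.04 in low-fat and 2.99 and 1.81 in normal diet blood, all under 20 as well. *Greb1la* had 1.77 and 7.07 in low-fat and 7.48 and 25.3 in normal diet blood, with only normal diet blood 2 above 20. The markers of eye and brain, which should be scarce in blood, summed to 189.9 and 115.1 in low-fat blood, against 95.8 and 114 in normal diet blood, and 7 of 11 tested were higher in low-fat blood without overlap, beside 19.2% of all genes. All of these 7 except *rtn1*, with 26.6 and 20.2 in low-fat and 13.5 and 18.1 in normal diet blood, stayed under 20 in every blood sample. Over all 177 genes the diets did not overlap in 54 in blood (30.5%), 34 with low-fat higher (19.2%) and 20 with low-fat lower (11.3%).

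**Figure D4:**
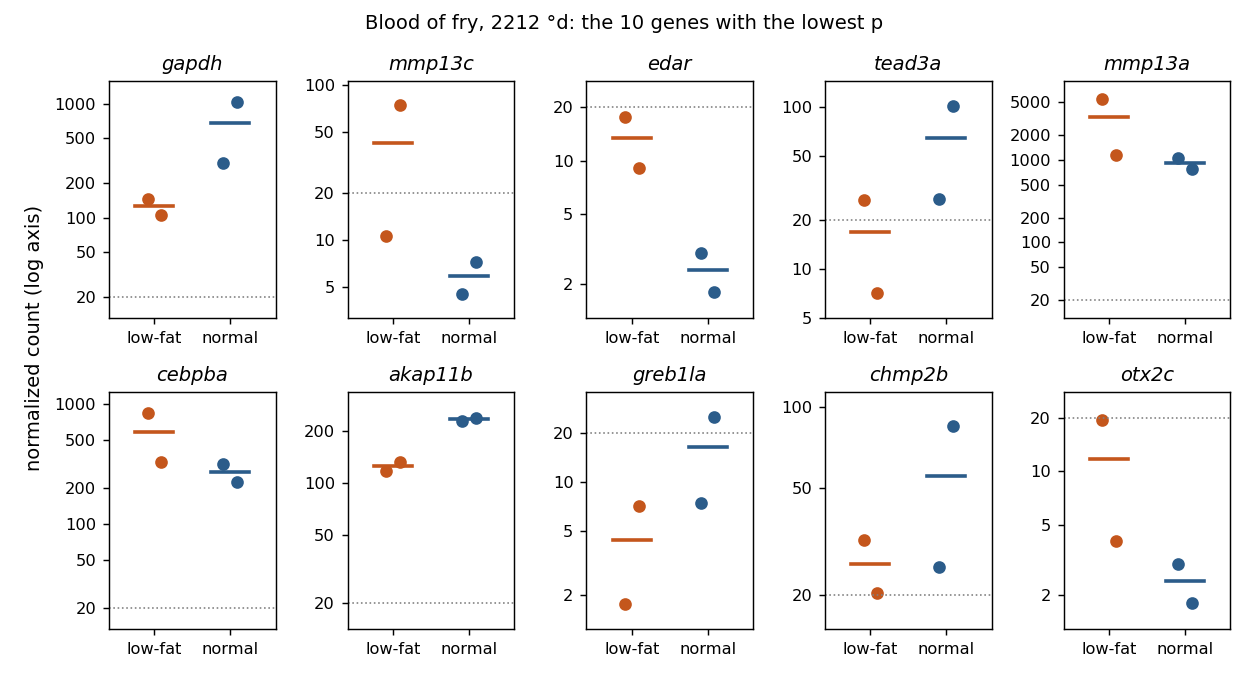
Normalized counts (y axes, log scale) of the 10 genes with the lowest p in blood of 2212 °d fry, each point 1 fish and each bar the mean of 2, low-fat in orange and normal in blue, with the detection threshold of 20 dotted where it falls on the axis. Single samples set several of the gaps, such as normal diet blood 2 in *tead3a* and *chmp2b*, and *edar* and *otx2c* lie wholly under 20.

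The diet differences of whole fry and of blood had little in common. Of the 177 genes 8 (4.52%) separated the diets in the same direction in both sample types, and 15 (8.47%) in opposite directions. Where a gene averaged 20 or more in both sample types (95 genes), the log2 fold changes had the same sign in 49 and opposite signs in 44, with a Pearson correlation of -0.12 across genes, which share the scaling of each sample and are not independent. The fish, the age and the tissue all differ between the sample types.

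*Gapdh* had the lowest p for the gap between the types, with a difference of effects, blood minus whole fry, of -4.02 ± 0.91 (interval -6.05 to -1.98, adjusted p 0.31). It was -4.65, past the adjusted threshold, without normal diet blood 1 and -2.88, with no call, without normal diet blood 2. With TMM scaling its adjusted p was 0.02, with DESeq2 0.00062, and over the other settings that kept all fish it was 0.22 to 0.4. *Akap11b* was next. It had 176 and 126 counts in low-fat whole fry, against 47.7 and 109 in normal diet whole fry, and 117 and 133 in low-fat blood, against 230.5 and 241 in normal diet blood. In both types the diets were apart, in opposite order, with log2 fold changes of 0.94 ± 0.40 in whole fry and -0.91 ± 0.39 in blood and a difference of -1.84 ± 0.56 (interval -3.09 to -0.60, adjusted p 0.69). Without normal diet fry 1 the log2 fold change in whole fry was 0.46, and without normal diet fry 2 it was 1.66. *Mc4ra*, a copy of the melanocortin receptor that curbs appetite in the brain of mammals, had 14.2 and 8.58 in low-fat whole fry, against 21.3 and 22 in normal diet whole fry, and stayed under 20 in all blood samples. *Tle4c*, a Groucho family corepressor, had 7.77 and 11.8 in low-fat and 12.2 and 27.5 in normal diet whole fry and 26.6 and 19.2 in low-fat and 13.5 and 12.7 in normal diet blood. Only normal diet fry 2 and low-fat blood 3 exceeded 20 in *tle4c*. *Mc4ra* entered the test through normal diet whole fry alone, with a mean of 21.65, and *tle4c* through low-fat blood alone, with 22.9. For both genes the filter can therefore favour a difference. This also holds for *ghb*, *gha*, *otx2c*, *six6a* and *foxp3b*, which entered through normal diet whole fry alone, and for *lepb1*, through low-fat whole fry alone.

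**Figure D5:**
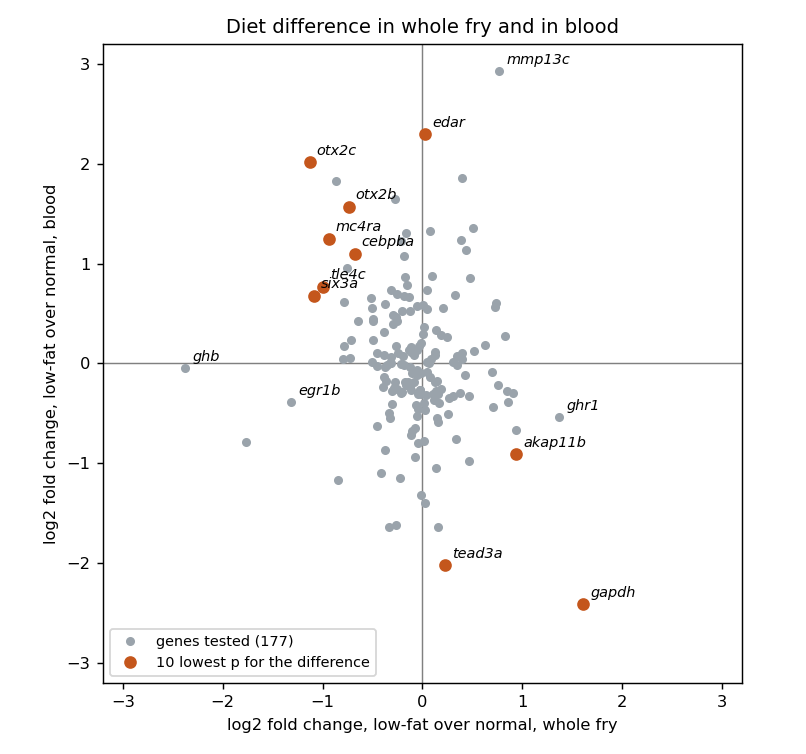
Log2 fold change, low-fat over normal, in whole fry on the x axis and in blood on the y axis for the 177 tested genes, with the 10 genes of lowest p for the difference of the effects in orange. *Gapdh* lies at 1.61 in whole fry and -2.41 in blood, and genes fall in all 4 quadrants.

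Over both sample types the lowest p belonged to *myf5b*, at 0.67 ± 0.24 (interval 0.14 to 1.20, adjusted p 0.94). In blood it had 26.6 and 18.2 counts on the low-fat diet, against 13.5 and 16.3 on the normal diet, so that only low-fat blood 3 exceeded 20. *Dlk1a*, a copy of the gene of a membrane protein that holds back fat cell differentiation in mammals, had 24.6 and 19.3 in low-fat whole fry, against 40.6 and 38.5 in normal diet whole fry, and under 20 in all blood samples (-0.93 ± 0.34 over both types, interval -1.68 to -0.17, adjusted p 0.94). Its highest mean in hatchery parr was in the brain, 305.6 ± 190.4 (SD, n = 4). The other copy on the panel, *dlk1b*, was at 0.71 ± 0.41 over both types. *Rxrab*, a retinoid X receptor that pairs with the peroxisome proliferator-activated receptors, had 160.5 and 118 in low-fat and 198 and 183 in normal diet whole fry, and 21.3 and 20.2 in low-fat and 28.4 and 36.2 in normal diet blood. Low-fat values were below normal diet values in both types, at -0.52 ± 0.22 (interval -1.01 to -0.03, adjusted p 0.97). *Tead1a* took the other direction, with 64.7 and 46.1 in low-fat and 42.6 and 36.7 in normal diet whole fry and 24.8 and 15.1 in low-fat and 12 and 9.04 in normal diet blood (0.61 ± 0.30, interval -0.05 to 1.27). Its other copies, *tead1b*, *tead1c* and *tead1d*, were at -0.11 ± 0.25, -0.13 ± 0.35 and -0.13 ± 0.31 over both types.

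The genes the panel was built around, those associated with age at maturity and their paralogs, showed no diet difference past the test. In the study *vgll3a*, *akap11a* and *six6a* are the associated copies, and *vgll3b*, *akap11b* and *six6b* are their paralogs. *Vgll3a*, a cofactor of the TEAD factors that inhibits fat cell formation in mammals, had 29.8 and 44 counts in low-fat whole fry, against 35.5 and 44.9 in normal diet whole fry, with the diets interleaved, and was under 20 in all blood samples (0.09 ± 0.34 over both types, interval -0.65 to 0.83). *Akap11a*, an anchor of protein kinase A, had 54.4 and 65.4 in low-fat and 50.7 and 54.1 in normal diet whole fry and 85.2 and 67.6 in low-fat and 103 and 77.8 in normal diet blood (-0.03 ± 0.23, interval -0.54 to 0.47). *Six6a*, a factor of the eye and the hypothalamus and pituitary, had 23.3 and 16.1 in low-fat and 21.3 and 27.5 in normal diet whole fry, a log2 fold change of -0.41 ± 0.37 over both types, with an interval of -1.22 to 0.40. *Six6a* was under 20 in all blood samples. *Vgll3b* and *six6b* stayed under 20 in all 8 samples. *Akap11b*, described above, was close to 0 over both types, at 0.01 ± 0.38.

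The remaining lists gave 0 genes past the adjusted threshold in any comparison. In the Hippo pathway list 19 of 20 members were tested, with a median over both types of -0.13 and intervals within 2-fold for 12. The list took in *mst1a* and *mst1b* by their symbol alone, which is shared by a Hippo kinase and a secreted liver protein, and their highest means in hatchery parr were in the liver, at 5191 ± 303.8 and 5268.8 ± 682.8 (SD, n = 4). Without both the median was -0.13 over 17 genes. The 15 protein kinase A anchors and regulatory subunits had a median of -0.03 and intervals within 2-fold for 13. The 14 tested retinoid and vitamin D genes had a median of 0.07, the 9 sex steroid receptor and gonad genes -0.06, with intervals within 2-fold for 8, and 4 of 13 genes of the gonadotropin axis were high enough to test, with a median of 0.05. The collagen and bone list, 15 of 16 tested, had a median of -0.08 and intervals within 2-fold for 2. The regulatory T cell markers *foxp3a* and *foxp3b* were at -0.07 ± 0.32 and -0.41 ± 0.33.

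The 6 reference genes set the scale by their geometric mean, so a diet difference shared by all 6 could not appear in their values. Only differences among the 6 can be read. Their log2 fold changes over both types were -0.17 ± 0.31 for *ef1ac*, -0.10 ± 0.22 for *prkar1aa*, 0.26 ± 0.38 for *rps20*, 0.10 ± 0.24 for *rxrbaa*, -0.19 ± 0.26 for *vdraa* and 0.04 ± 0.21 for *vdrab*. *Rps20*, a ribosomal protein gene, had 22037 and 15661 counts in low-fat and 15651 and 15969.6 in normal diet whole fry, where low-fat fry 3 was above the rest. *Rxrbaa* separated the diets in both types, in opposite directions, with 167 and 119 in low-fat and 89.2 and 116 in normal diet whole fry and 67.4 and 67.6 in low-fat and 79.3 and 90.4 in normal diet blood. The interval lay within 2-fold for 5 of the 6, the exception being *rps20* at -0.58 to 1.10.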

How the data were processed

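Raw nCounter counts of 220 genes, 8 negative and 6 positive control probes were deposited by the authors, from 100 ng of RNA per sample. The authors also deposited a normalized signal for 211 genes, which per the study's methods came from nSolver. For the 7426 values with a raw count of 100 or more, it equalled the raw count multiplied by 1 factor per sample to within 0.0094%. Lower counts were not compared, and the signal was used only for that check. The factor, which rests on 6 reference genes scaled by their geometric mean (*rps20*, *ef1ac*, *prkar1aa*, *rxrbaa*, *vdrab* and *vdraa*), was applied here as an offset. Positions are not given because probes were designed on transcripts, and no sequences were used.

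The 8 samples were grouped by the diet and sample type in the labels. Genes averaging 20 normalized counts or more in 1 or more of the 4 groups were tested with edgeR 4.0.16 (glmQLFit, glmQLFTest, R 4.3.3), with the sample type as a block, and in a fit of 4 group means for whole fry, for blood and for the difference of the effects. Benjamini-Hochberg adjustment of p ran over all 177 genes, with a threshold of 0.05. Intervals are 95% Wald intervals from the same fits. The alternatives were TMM scaling, scaling by 4 reference genes, DESeq2 1.42.0, limma 3.58.1 on log2(normalized count + 1), other filters, subtraction of negative controls, each sample type alone, and each sample left out. The edgeR, DESeq2 and limma fits were run on simulated data, and their results over both sample types were checked. Results for whole fry, for blood and for the difference were not checked in this way. Technical measures were compared by an exact permutation test with numpy 2.4.6. Levels in hatchery parr tissues are means of normalized counts, without samples whose factor exceeded 3 and without tissues of fewer than 2 samples.

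The genes named are the 10 with the lowest p in each comparison, of which 1 in whole fry is not reported here, the genes associated with age at maturity, the 6 reference genes and the tested members of the leptin and growth hormone, adipogenic and lipid handling lists; *egr1a*, *egr1d*, *rpabc2b*, *myf5a*, *rtn1*, *spp2*, *mst1b*, *col1a1a*, *col1a2*, *sox9d*, *foxp3a*, *foxp3b* and the *aes* genes were named after their values were seen or as markers. The comparison and its gene lists were chosen with earlier results of these data known. Nothing in the labels says that the 2 fish of a group came from separate tanks, so p-values measure the spread between these fish only.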

Additional observations from a re-analysis of the deposited data

How the results depend on the processing

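Of 62 counts of genes called under the alternatives, 52 equalled the count of 0 given in the report. With the whole fry fitted alone 2 genes passed in whole fry, *egr1b* and *ghb*. With DESeq2 1 gene passed in blood and 1 in the difference of the effects, and with TMM scaling 1 in the difference, *gapdh* each time. Leaving out each sample in turn gave 0 to 1 genes over both types, 0 to 1 in whole fry, 0 to 4 in blood and 0 to 1 in the difference. TMM scaling moved the median log2 fold change of all genes in whole fry to 0.06, against -0.07 with the reference genes, and no count of calls there. Of 69 log2 fold changes of named genes 20 changed sign under some alternative, all of them without a call in either. Over both types, subtraction of the negative controls gave -0.38 for *klf15c*, 0.18 for *pparaa*, 0.04 for *pparab*, -0.08 for *pparb1a*, -0.05 for *vdrab*, 0.06 for *ef1ac* and -0.07 for *akap11b*. TMM scaling gave 0.09 for *pparaa* and 0.02 for *pparab*, DESeq2 0.04 for *pparaa* and 0.01 for *apoc1b*, limma -0.28 for *ppargc* and 0.07 for *apoc1b*, and 4 reference genes -0.01 for *akap11b*. With each sample left out in turn the log2 fold change over both types was -0.09 to 0.52 for *lepb1*, -0.01 to 0.49 for *leprb*, -0.2 to 0.15 for *cebpaa*, -0.29 to 0.52 for *cebpba*, -0.19 to 0.1 for *cebpda*, -0.26 to 0.05 for *cebpdb*, -0.62 to 0.2 for *klf15a*, -0.15 to 0.08 for *pparaa*, -0.18 to 0.05 for *pparab*, -0.09 to 0.18 for *pparb1a*, -0.09 to 0.41 for *ppargc*, -0.55 to 0.28 for *apoc1a*, -0.7 to 0.94 for *apoc1b*, -0.09 to 0.21 for *rxrbaa*, -0.08 to 0.11 for *vdrab*, -0.29 to 0.15 for *ef1ac*, -0.13 to 0.1 for *akap11a*, -0.39 to 0.27 for *akap11b* and -0.08 to 0.3 for *vgll3a*. The cause of these changes was not tested. Where 1 sample was left in a group, it was assumed to vary like the others. A cartridge block was not run because each sample type had 1 cartridge. No paired analysis was possible because nothing in the sources used here matches a low-fat fish to a normal diet fish. In blood, lower totals and values near 20 limit what could be detected.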
